A study of Mus musculus with 8 samples.

Results

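The 10 genes described here encode the interleukin-7 (IL-7) receptor and the proteins that carry or limit its signal: *Il7r*, *Il2rg*, *Jak1*, *Jak3*, *Stat5a*, *Stat5b*, *Socs1*, *Socs2*, *Socs3* and *Cish*. They were chosen by name and matched through their symbols to Entrez Gene identifiers, and all 10 were found among the 27179 identifiers of the count table. Their RNA was followed by RNA-sequencing in 8 libraries, 2 in each of 4 groups of B-cell progenitors sorted from the bone marrow of young adult mice. Control Erg fl/fl mice, in which both alleles of the transcription factor gene *Erg* are flanked by loxP sites and no Cre is carried, gave pre–proB, proB and preB cells. Rag1CreT/+;ErgΔ/Δ mice carry a Rag1Cre transgene that deletes floxed alleles in lymphoid progenitors, and gave pre–proB cells only. All cells were B220+ and lacked IgM, IgD, NK1.1 and CD11c, with pre–proB cells taken as CD43+CD24-, proB cells as CD43+CD24+ and preB cells as CD43-CD24+. Each group came from 2 mice, and the sources used here do not state which libraries of different groups came from the same animal.

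IL-7 is made by bone marrow stroma and is the cytokine on which early mouse B-cell progenitors depend for survival and growth. It binds a receptor of the IL-7 receptor alpha chain (*Il7r*) and the common gamma chain (*Il2rg*), which is shared with several other interleukin receptors. The kinases *Jak1*, held by the alpha chain, and *Jak3*, held by the gamma chain, then phosphorylate *Stat5a* and *Stat5b*, which enter the nucleus and switch on genes that include their own inhibitors, *Cish* and *Socs1* to *Socs3*. The signal is strongest in proB and cycling preB cells and wanes as preB cells leave the cycle and rearrange their light chain genes.

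Promoter windows of 300 bases, 250 before and 50 after a RefSeq start site in GRCm38.p6, were found for 9 of the 10 genes (all but *Socs2*), in 11 windows since some genes have several starts. They were searched on both strands for the STAT motif TTCNNNGAA, the kind of site that activated Stat5 binds, and for the ETS motif CGGAAGT or AGGAAGT, the core bound by *Erg* and its relatives. The STAT motif was present in 3 windows, those of *Il7r*, *Socs3* and *Cish*, and in 8.3% of 32851 promoters of the same length. The ETS motif was present in 1 window, that of *Il7r*, and in 15.1% of all promoters. These 3 windows are shown because they hold a match. Capitals mark the matches and each sequence runs 5′ to 3′ on the strand of the gene.
*Il7r* (GRCm38.p6, chr15:9529827-9530126, minus strand): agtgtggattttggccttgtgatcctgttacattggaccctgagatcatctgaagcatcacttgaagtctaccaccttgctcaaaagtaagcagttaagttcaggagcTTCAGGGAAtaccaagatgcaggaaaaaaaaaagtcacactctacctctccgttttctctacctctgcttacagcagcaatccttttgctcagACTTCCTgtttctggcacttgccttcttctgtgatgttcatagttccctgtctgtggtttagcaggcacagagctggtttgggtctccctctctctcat
*Socs3* (GRCm38.p6, chr11:117969317-117969616, minus strand): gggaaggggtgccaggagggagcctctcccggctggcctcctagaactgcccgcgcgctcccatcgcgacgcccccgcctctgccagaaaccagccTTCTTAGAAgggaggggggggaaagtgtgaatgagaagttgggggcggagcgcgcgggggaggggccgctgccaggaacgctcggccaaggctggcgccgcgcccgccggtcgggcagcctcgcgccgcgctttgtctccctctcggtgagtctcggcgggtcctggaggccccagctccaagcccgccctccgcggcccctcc
*Cish* (GRCm38.p6, chr9:107296409-107296708, plus strand): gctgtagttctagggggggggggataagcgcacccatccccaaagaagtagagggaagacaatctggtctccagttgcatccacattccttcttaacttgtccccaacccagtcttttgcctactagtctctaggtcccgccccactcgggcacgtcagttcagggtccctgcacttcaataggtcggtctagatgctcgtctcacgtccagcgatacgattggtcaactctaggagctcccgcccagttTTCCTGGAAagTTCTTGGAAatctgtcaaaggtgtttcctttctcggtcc
In the *Il7r* window the STAT match TTCAGGGAA began at -142 and the ETS match, read as ACTTCCT, at -49 from the start site, which is counted as 1. The *Socs3* match TTCTTAGAA began at -154. In the *Cish* window 2 matches, TTCCTGGAA and TTCTTGGAA, began at 1 and 12. A match is a description of the letters and not evidence of binding.

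The libraries held between 15565381 and 18457632 counts, so that 3 counts stood for 0.154 to 0.194 CPM, the counts scaled to library size. *Erg* RNA was at 2.5 and 2.58 CPM in the Rag1CreT/+;ErgΔ/Δ libraries against 69.1 and 25.3 CPM in the control pre–proB libraries, or 5.38% of the control mean (log2 fold change -4.23, SE 0.547, edgeR adjusted p = 0.025). This call was lost when either Rag1CreT/+;ErgΔ/Δ library was left out, at log2 fold changes of -4.20 without replicate 1 and -4.25 without replicate 2 and adjusted p of 0.207 and 0.189. The pre–proB libraries of both genotypes carried much RNA of plasmacytoid dendritic cells, which also bear B220. The 8 markers of these cells summed to 13237 and 14281 CPM in control and to 15259 and 15799 CPM in Rag1CreT/+;ErgΔ/Δ pre–proB libraries. Their sums were 1291 and 1236 CPM in proB cells and 2771 and 2793 CPM in preB cells. None of the 8 was at 0 in both libraries of a group. Of the preB sums, 2368 and 2378 CPM were *Spib*, a gene that preB cells also use. In preB against proB cells 6 of the 8 were called lower (edgeR adjusted p below 0.05) and *Spib* higher. Of all genes 29.9% were called lower and 29.0% higher in this comparison. *Siglech* was at 46.5 and 56.5 CPM in proB and 11.2 and 11.5 CPM in preB cells. The 9 B lineage markers summed to 1522 and 818 CPM in control pre–proB cells, 431 and 427 CPM in Rag1CreT/+;ErgΔ/Δ cells, and between 4518 and 6465 CPM in proB and preB cells, and none was at 0 in both libraries of a group. Among the defining B lineage genes, *Pax5* was at 26.8 and 7.78 CPM in control pre–proB cells, at 0.437 and 0.0646 CPM in Rag1CreT/+;ErgΔ/Δ cells and at 172 and 168 CPM in proB cells. The B lineage markers differed in every comparison that involves pre–proB cells. In Rag1CreT/+;ErgΔ/Δ against control cells 6 of the 9 were called lower, against 0.946% of all genes. The plasmacytoid dendritic cell markers differed between the stages. Between the genotypes 0 of the 8 were called (edgeR, median log2 fold change 0.15), against 1.16% of all genes. Their means in Rag1CreT/+;ErgΔ/Δ cells were nevertheless all above control, at 105% to 142%, and both sums lay above both control sums. The part of these markers in the differences of the 10 genes, and of the other genes named below, was not tested. In bulk RNA a smaller number of cells of a type and less RNA per cell cannot be told apart.

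Between the control stages the widest log2 fold changes of the 10 were those of inhibitor genes, from 3.04 for *Socs1* to -3.50 for *Socs3* in preB against pre–proB cells, and those of *Jak1* stayed between -0.11 and 0.21. Between pre–proB and proB cells 9 of the 10 genes were called, meaning an edgeR adjusted p below 0.05, with *Il7r*, *Socs1*, *Socs2* and *Cish* higher and *Il2rg*, *Jak3*, *Stat5a*, *Stat5b* and *Socs3* lower in proB cells. Of all 13650 genes tested in this comparison 73.0% were called, 36.2% higher and 36.8% lower, so 9 of 10 is near the background. The median log2 fold change was -0.14 over the 10 genes, all of which passed the expression filter, and 0.00 over all genes. Between proB and preB cells 8 genes were called, with *Il7r*, *Il2rg*, *Jak1* and *Socs1* higher and *Jak3*, *Stat5a*, *Socs2* and *Cish* lower in preB cells, against 58.9% of all genes, 29.0% higher and 29.9% lower. The median log2 fold change was -0.07 over the 10 and 0.00 over all genes. Between pre–proB and preB cells 8 were called against 70.7% of all genes (36.5% higher and 34.1% lower), with *Il7r*, *Il2rg*, *Socs1* and *Socs2* higher and *Jak3*, *Stat5a*, *Stat5b* and *Socs3* lower in preB cells, and medians of 0.02 and 0.04. In Rag1CreT/+;ErgΔ/Δ against control pre–proB cells none of the 10 was called by edgeR, DESeq2 or limma-voom, and 2 had an unadjusted p below 0.05 in each of the 3 tools. Of 13005 genes 1.16% were called (0.215% higher and 0.946% lower) and 12.5% had an unadjusted p below 0.05 in edgeR, so 2 of 10 is near the background. The comparisons share the control pre–proB libraries or the proB or preB libraries, so they are not independent of each other.

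**Figure D1:**
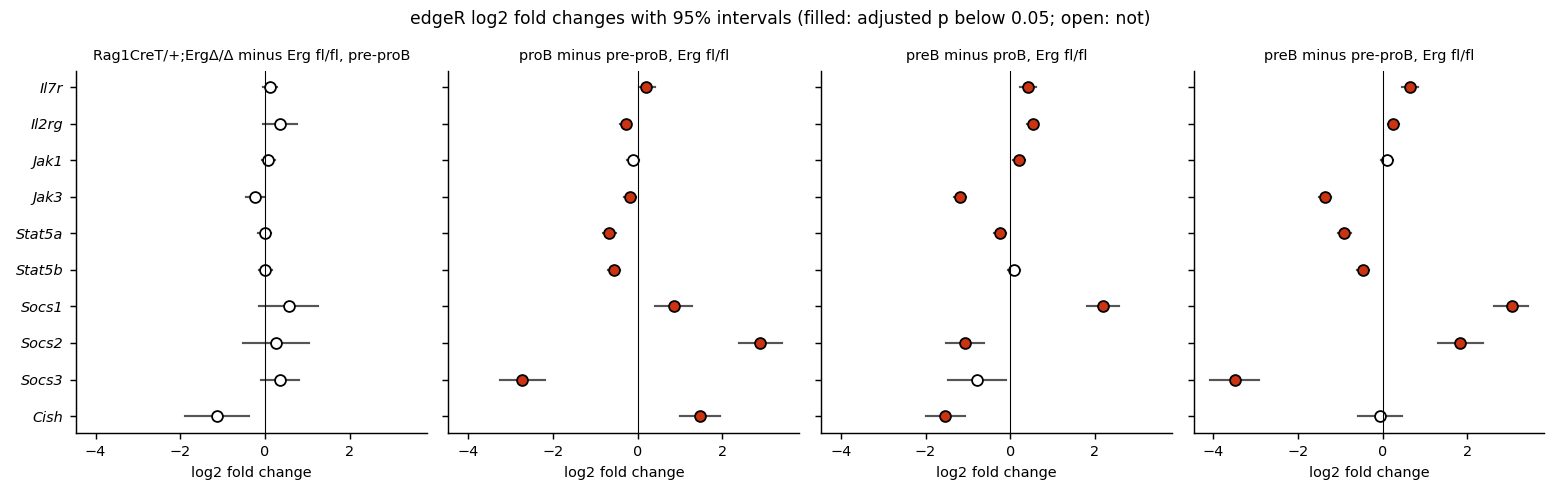
Log2 fold changes of the 10 genes (horizontal axis) in 4 comparisons of 2 libraries against 2, as points with 95% intervals from edgeR; filled points have an adjusted p below 0.05. The 4 inhibitor genes spread from -3.50 (*Socs3*) to 3.04 (*Socs1*), both in preB against pre–proB cells, and in the comparison of genotypes no point is filled.

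*Il7r* had the highest mean level per length of the 10 in each group. Its CPM lay at 414 and 416 CPM in control pre–proB cells, 488 and 451 CPM in proB cells, 669 and 583 CPM in preB cells, and 436 and 472 CPM in Rag1CreT/+;ErgΔ/Δ pre–proB cells. Both preB libraries were above all others, and the ranges of proB and Rag1CreT/+;ErgΔ/Δ cells overlapped. The level rose 1.34-fold from proB to preB cells (log2 fold change 0.42, SE 0.0823, adjusted p = 0.00246). From pre–proB to proB cells it rose 1.16-fold (log2 fold change 0.21, SE 0.0824, adjusted p = 0.0424), a call kept in 8 of 15 alternatives. Without any 1 of the 4 libraries compared that call was lost, with log2 fold changes of 0.16 and 0.19 without pre–proB replicates 1 and 2 and 0.17 and 0.24 without proB replicates 1 and 2, and adjusted p between 0.0983 and 0.21.

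*Il2rg* dipped in proB cells and was highest in preB cells among the control stages. Its libraries lay at 78.4 and 80.9 CPM in pre–proB cells, 64.9 and 63.4 CPM in proB cells, 90.8 and 93 CPM in preB cells, and 122 and 82.1 CPM in Rag1CreT/+;ErgΔ/Δ pre–proB cells. No control stages overlapped. From pre–proB to proB cells *Il2rg* fell by 0.28 on the log2 scale (SE 0.0577, adjusted p = 0.0022), and from proB to preB cells it rose by 0.53 (SE 0.0572, adjusted p = 0.000103). The first call was lost with all 8 libraries in 1 fit (-0.31, adjusted p = 0.0819). The rise of 0.25 from pre–proB to preB cells (adjusted p = 0.0041) was not called without pre–proB replicate 1 (0.16, adjusted p = 0.0802) or with all 8 libraries in 1 fit (0.21, adjusted p = 0.232). Per length, as FPKM, the CPM divided by the exon length in kilobases, *Il7r* exceeded *Il2rg* 2.77-fold and 2.70-fold in the control pre–proB libraries, 3.95-fold and 3.74-fold in proB, 3.87-fold and 3.29-fold in preB and 1.87-fold and 3.01-fold in the Rag1CreT/+;ErgΔ/Δ libraries.

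**Figure D2:**
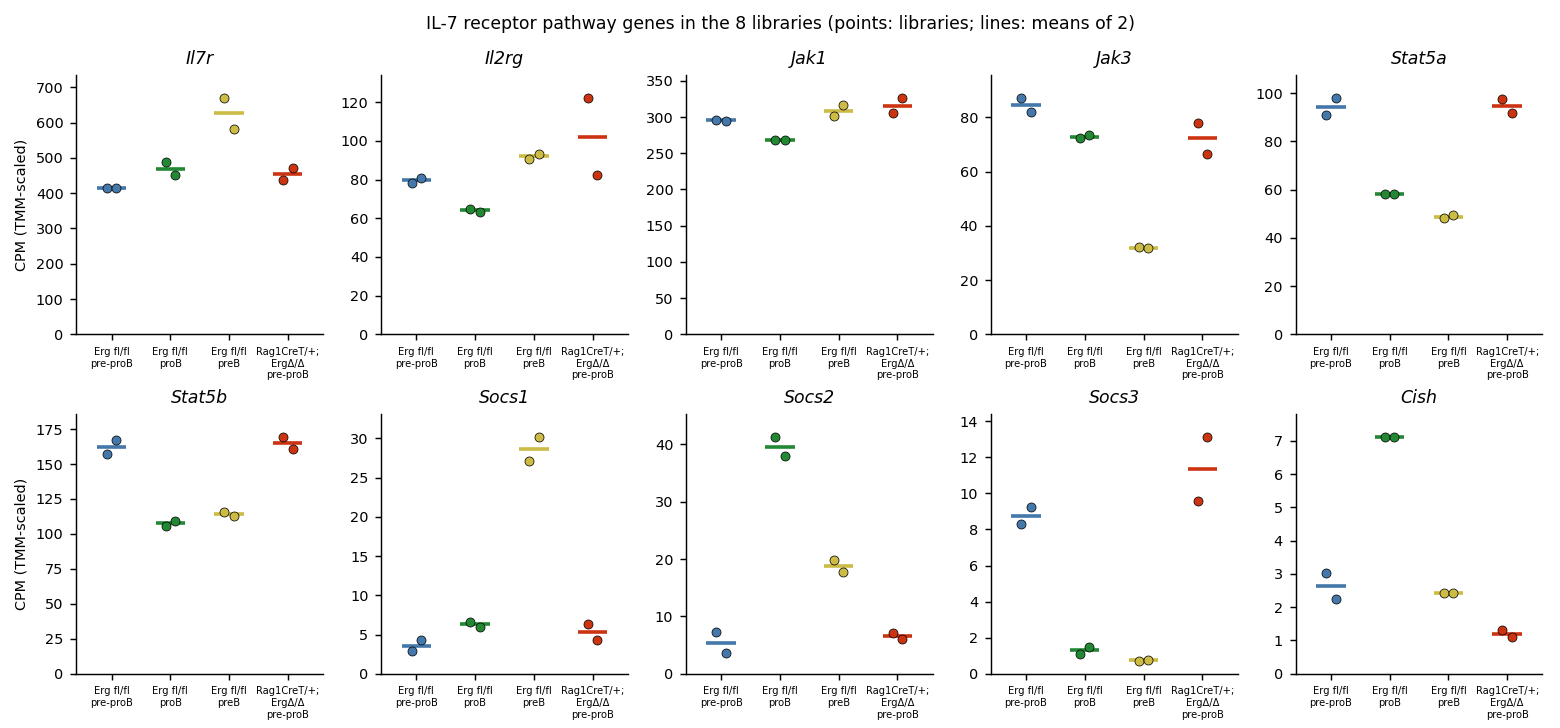
Level of each of the 10 genes in CPM, scaled by TMM factors (vertical axis from 0, a separate scale for each gene), in the 4 groups; points are single libraries and lines the means of 2. *Il7r* and *Socs1* are highest in both preB libraries, *Socs2* and *Cish* in both proB libraries, and *Jak3* is lowest in both preB libraries at 32.1 and 31.8 CPM.

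The kinases *Jak1* and *Jak3* parted at the preB stage. *Jak3* was at 87.1 and 81.9 CPM in pre–proB cells, 72.5 and 73.4 CPM in proB cells, 32.1 and 31.8 CPM in preB cells, and 78 and 66.7 CPM in Rag1CreT/+;ErgΔ/Δ pre–proB cells. Both preB libraries were far below all others. In preB cells *Jak3* was at 0.44 times its proB level (log2 fold change -1.18, SE 0.0629, adjusted p = 4.24e-06) and kept its call in all 15 alternatives. The smaller fall from pre–proB to proB cells (-0.18, SE 0.0591, adjusted p = 0.0244) was not called by DESeq2 (adjusted p = 0.0533), with total counts (-0.12, adjusted p = 0.112) or without proB replicate 1 (-0.15, adjusted p = 0.145).

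*Jak1* varied little. Its libraries lay at 296 and 295 CPM in pre–proB cells, 268 and 268 CPM in proB cells, 301 and 316 CPM in preB cells, and 305 and 326 CPM in Rag1CreT/+;ErgΔ/Δ cells. The rise from proB to preB cells was called (log2 fold change 0.21, SE 0.062, adjusted p = 0.0185) but lost without proB replicate 1 (0.20, adjusted p = 0.115), proB replicate 2 (0.19, adjusted p = 0.118) or preB replicate 2 (0.13, adjusted p = 0.123) and with total counts (0.15, adjusted p = 0.0573). *Jak1* was not called between pre–proB and proB cells (-0.11, 95% interval -0.25 to 0.04, adjusted p = 0.15) or between pre–proB and preB cells (0.10, interval -0.04 to 0.24, adjusted p = 0.173). Per length, *Jak1* exceeded *Jak3* by between 3.00-fold and 3.26-fold in the pre–proB and proB libraries of control mice and by 8.26-fold and 8.74-fold in the preB libraries.

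Both Stat5 genes were highest in pre–proB cells. *Stat5a* was at 90.8 and 97.9 CPM in control pre–proB cells, 58 and 58.1 CPM in proB cells, 48.2 and 49.3 CPM in preB cells, and 97.7 and 91.6 CPM in Rag1CreT/+;ErgΔ/Δ cells. It declined at each step, by 0.67 on the log2 scale from pre–proB to proB cells (SE 0.0636, adjusted p = 1.79e-05) and by a log2 fold change of -0.24 from proB to preB cells (SE 0.0654, adjusted p = 0.0118). The call of the second step was lost without preB replicate 1 (-0.22, adjusted p = 0.0582).

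*Stat5b* was at 157 and 167 CPM in control pre–proB cells, 106 and 109 CPM in proB cells, 116 and 113 CPM in preB cells, and 169 and 161 CPM in Rag1CreT/+;ErgΔ/Δ cells. All proB and preB libraries were below all pre–proB libraries. The fall from pre–proB to proB cells was -0.56 on the log2 scale (SE 0.0611, adjusted p = 4.31e-05), whereas the difference between preB and proB cells was not called (0.10, 95% interval -0.05 to 0.24, adjusted p = 0.213). Per length the ratio of *Stat5b* to *Stat5a* was 1.22 to 1.35 in the pre–proB libraries of both genotypes and the proB libraries, and 1.72 and 1.64 in the preB libraries. The genes are neighbours on chromosome 11 (*Stat5b* at 100780731-100859004 and *Stat5a* at 100859351-100885169, GRCm38) and close in sequence, so reads may be shared between them.

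The 4 inhibitor genes, whose products block the receptor, the Jak kinases or Stat5 binding to the receptor, each had a pattern of their own. *Socs1* rose at each step. It was at 2.89 and 4.25 CPM in control pre–proB cells, 6.61 and 6.02 CPM in proB cells, 27.1 and 30.1 CPM in preB cells, and 6.37 and 4.26 CPM in Rag1CreT/+;ErgΔ/Δ cells. Both preB libraries were above all others. The rise was 1.8-fold from pre–proB to proB cells (log2 fold change 0.85, SE 0.193, adjusted p = 0.0037) and 4.55-fold from proB to preB cells (2.19, SE 0.162, adjusted p = 1.55e-05). Among all genes its log2 fold change in the second comparison lay at percentile 99.2.

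*Socs2* peaked in proB cells. Its libraries lay at 7.25 and 3.65 CPM in control pre–proB cells, 41.2 and 37.9 CPM in proB cells, 19.8 and 17.7 CPM in preB cells, and 7.06 and 6.07 CPM in Rag1CreT/+;ErgΔ/Δ cells. The control pre–proB libraries spread from below to above both Rag1CreT/+;ErgΔ/Δ libraries, and replicate 1, the higher, also held more of the summed B lineage markers (1522 against 818 CPM). *Socs2* was 7.46-fold higher in proB than in pre–proB cells (log2 fold change 2.90, SE 0.224, adjusted p = 4.69e-06) and fell by 1.07 on the log2 scale from proB to preB cells (SE 0.192, adjusted p = 0.0016).

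*Cish*, a direct Stat5 target, also peaked in proB cells. It was at 3.02 and 2.25 CPM in control pre–proB cells, 7.10 and 7.10 CPM in proB cells, 2.44 and 2.42 CPM in preB cells, and 1.31 and 1.1 CPM in Rag1CreT/+;ErgΔ/Δ cells. The preB libraries lay within the range of the control pre–proB libraries, and both Rag1CreT/+;ErgΔ/Δ libraries below all 6 controls. The rise to proB cells was 2.76-fold (log2 fold change 1.47, SE 0.205, adjusted p = 0.000206) and the fall to preB cells -1.54 on the log2 scale (SE 0.205, adjusted p = 0.000316). Between preB and pre–proB cells the log2 difference was -0.07 (95% interval -0.58 to 0.45, adjusted p = 0.796). The 8 proliferation markers were also highest in proB cells, and summed to 1398 and 1546 CPM in pre–proB, 6595 and 6396 CPM in proB and 4727 and 3998 CPM in preB cells. *Socs2* shared this order of the 3 stages, while *Cish* did not differ detectably between preB and pre–proB cells. The part of cell division in the pattern of *Socs2* and *Cish* was not tested.

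*Socs3* went the other way and was highest in the pre–proB libraries of both genotypes. It was at 8.28 and 9.24 CPM in control pre–proB cells, 1.09 and 1.49 CPM in proB cells, 0.698 and 0.789 CPM in preB cells, and 9.56 and 13.1 CPM in Rag1CreT/+;ErgΔ/Δ cells. The 2 preB libraries held 26 counts in all. *Socs3* fell by 2.72 on the log2 scale from pre–proB to proB cells (SE 0.234, adjusted p = 9.43e-06). The further difference of -0.79 from proB to preB cells missed the threshold (SE 0.303, adjusted p = 0.0515), and passed it without proB replicate 1 (-1, adjusted p = 0.0429) and under 4 other settings.

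The summed FPKM of the 4 inhibitor genes was 9.09 and 8.89 in control pre–proB cells, 23 and 21.5 in proB cells, 28.6 and 30.1 in preB cells and 11.6 and 10.9 in Rag1CreT/+;ErgΔ/Δ cells. *Socs3* made up 35.7% and 40.7% of this sum in control pre–proB cells, *Socs2* 66.4% and 65.4% in proB cells and *Socs1* 70.6% and 74.5% in preB cells. The gene that contributed most thus differed between the stages. The lengths rest on transcripts with a RefSeq record. With all protein-coding exons of GENCODE, a setting chosen after seeing the data, *Socs1* had a length of 2908 rather than 1340 bases and a mean FPKM of 9.83 rather than 21.3 in preB cells, where *Socs2* was at 6.95 under both. The summed FPKM was then 17.6 and 17.9 in preB and 19.9 and 18.6 in proB cells, so the order of these stages turned, against 7.75 and 7.05 in control pre–proB and 8.91 and 9.15 in Rag1CreT/+;ErgΔ/Δ cells. *Socs3*, *Socs2* and *Socs1* still made up the largest share in control pre–proB replicate 1 (41.8%) and replicate 2 (51.3%), proB (76.7% and 75.3%) and preB libraries (52.9% and 57.9%), respectively.

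**Figure D3:**
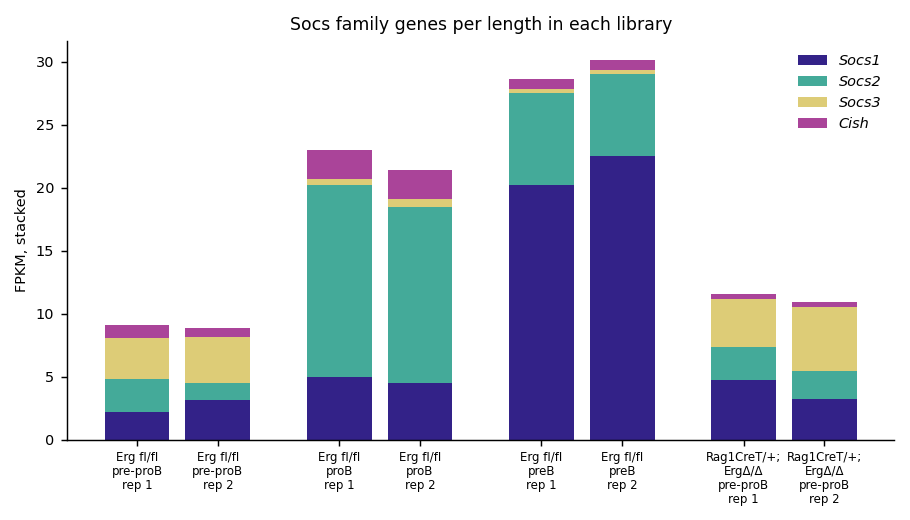
FPKM of the 4 inhibitor genes (vertical axis from 0), stacked for each of the 8 libraries. The bars of the proB libraries are mostly *Socs2* and those of the preB libraries mostly *Socs1*, and the *Cish* share is 3.77% and 3.33% in the Rag1CreT/+;ErgΔ/Δ libraries against 11% and 8.39% in the control pre–proB libraries.

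The comparison of Rag1CreT/+;ErgΔ/Δ with control pre–proB cells describes the pathway genes at the stage at which both genotypes have cells. Of the groups only the Rag1CreT/+;ErgΔ/Δ cells carry Cre. Their B lineage marker sums were also lower, at 431 and 427 against 1522 and 818 CPM. Loss of *Erg*, presence of Cre and the make-up of the sorted cells therefore cannot be told apart. *Cish* had the largest log2 difference of the 10 (-1.13, SE 0.321, 95% interval -1.90 to -0.37, unadjusted p = 0.0103, adjusted p = 0.2). It rested on 21 and 17 counts in the Rag1CreT/+;ErgΔ/Δ libraries against 47 and 37 in the controls, and the mean was 45.8% of control. Control replicate 1, the higher in *Cish*, also held more of the summed B lineage markers (1522 against 818 CPM). Over 13 alternatives the log2 difference ranged from -1.35 to -0.90 and the adjusted p from 0.0528 to 0.873. *Jak3* was the other gene with an unadjusted p below 0.05 (-0.24, interval -0.45 to -0.02, adjusted p = 0.361). The libraries of the genotypes did not overlap for 7 of the 10 genes, against 44.7% of all genes tested. *Il7r* (0.12, interval -0.05 to 0.28), *Jak1* (0.08, interval -0.08 to 0.24), *Stat5a* (-0.01, interval -0.17 to 0.15) and *Stat5b* (0.01, interval -0.14 to 0.16) had intervals within 0.3 of 0 on the log2 scale. The intervals were wider for *Il2rg* (0.35, interval -0.05 to 0.75), *Socs1* (0.56, interval -0.14 to 1.26), *Socs2* (0.26, interval -0.53 to 1.04) and *Socs3* (0.36, interval -0.09 to 0.81). The higher *Il2rg* mean came from replicate 1 at 122 CPM, which also held the highest *Cd4* and *Cd8a* levels of the pre–proB libraries. *Cd4* was at 1214 CPM there against 474, 614 and 623 CPM in the other 3, and *Cd8a* at 185 CPM against 112, 121 and 126 CPM. None of the other 6 T-cell markers was highest in that library, with *Cd3g* at 4.75 CPM and *Lat* at 11.1 CPM the lowest of the 4. The part of these levels in the *Il2rg* mean was not tested. The 8 natural killer cell markers summed to 265 and 377 CPM in Rag1CreT/+;ErgΔ/Δ and to 215 and 220 CPM in control cells. Most of each sum was *Klrd1*, which was not called (164 and 220 against 174 and 174 CPM). Of the 8, edgeR called 3 higher, *Ncr1* (8.05-fold), *Prf1* (4.11-fold) and *Klrk1* (2.25-fold), against 0.215% of all genes. The 5 not called were *Gzmb* (5.37-fold), *Klrb1c* (2.93-fold), *Eomes* (2.87-fold), *Tbx21* (2.06-fold) and *Klrd1* (1.09-fold). The median log2 fold change of the 8 was 1.54.

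The genes around the 10 were described in 5 lists, given as counts. These are read against the shares of all genes called above, which were 36.2% higher and 36.8% lower in proB against pre–proB cells, 29.0% higher and 29.9% lower in preB against proB cells, and 36.5% higher and 34.1% lower in preB against pre–proB cells. Between genotypes edgeR called 0.215% of all genes higher and 0.946% lower, and 12.5% had an unadjusted p below 0.05. The partners of the gamma chain, with the *Il7r*-binding thymic stromal lymphopoietin receptor *Crlf2*, numbered 7. In proB against pre–proB cells 2 were higher and 4 lower. *Il2ra*, the IL-2 receptor alpha chain known on preB cells as CD25, rose 11.5-fold from 6.48 and 5.35 CPM to 67.1 and 65.6 CPM (log2 fold change 3.52, adjusted p = 1.17e-08). *Il15ra* rose by 1.01 on the log2 scale, and *Il2rb* (-4.20), *Il4ra* (-1.92), *Il21r* (-1.64) and *Crlf2* (-0.44) were lower. In preB against proB cells 4 were higher and none lower. *Il2ra* rose a further 4.53-fold, to 293 and 305 CPM (log2 fold change 2.18, adjusted p = 1.19e-06), with *Il4ra* (1.44), *Il21r* (1.36) and *Il15ra* (0.56) also higher. The *Il15ra* call was lost when any of the 4 proB and preB libraries was left out (log2 fold changes 0.48 and 0.63 without proB replicates 1 and 2, 0.50 and 0.59 without preB replicates 1 and 2). It was also lost with DESeq2 (0.54). Between genotypes 0 of 7 were called by edgeR and by limma-voom and 1, *Il2rb*, by DESeq2, and 1 had an unadjusted p below 0.05 in each. *Il2rb*, which natural killer cells bear, was at 51.3 and 74.6 CPM in Rag1CreT/+;ErgΔ/Δ against 21.5 and 31.4 CPM in control cells (1.24, edgeR adjusted p = 0.0573).

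Of 6 other Jak and Stat genes 5 were lower in proB than in pre–proB cells, namely *Stat2* (-2.90), *Tyk2* (-1.96), *Jak2* (-1.89), *Stat3* (-1.59) and *Stat6* (-0.49), given as log2 fold changes. *Stat2* carries the type I interferon signal. From proB to preB cells 5 were higher, *Stat2* (0.89), *Stat6* (0.74), *Tyk2* (0.51), *Stat3* (0.51) and *Jak2* (0.35), while *Stat4* fell by 1.93 on the log2 scale from 35.7 and 38.2 CPM to 8.78 and 10.5 CPM. *Jak3* thus fell to preB cells while *Jak2* and *Tyk2* rose. Between genotypes 0 of 6 were called, and 0 had an unadjusted p below 0.05, in edgeR, DESeq2 and limma-voom.

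Of 16 other negative regulators of Jak-Stat signalling 3 were higher in proB than in pre–proB cells, *Ptpn11* (0.32), *Pias1* (0.23) and *Pias2* (0.23), and 9 were lower. The latter were *Ptprc* (-1.86), *Ptpn1* (-1.84), *Ptpn6* (-1.33), *Cbl* (-1.30), *Cblb* (-0.72), *Pias3* (-0.43), *Sh2b3* (-0.41), *Socs7* (-0.37) and *Socs6* (-0.31). From proB to preB cells 10 were higher and none lower. These were the ubiquitin ligase gene *Cblb* (0.94), *Socs5* (0.88), *Sh2b3* (0.73), *Ptpn1* (0.72), *Ptprc* (0.70), *Socs7* (0.49), *Socs4* (0.34), *Ptpn6* (0.29), *Pias3* (0.29) and *Pias1* (0.25). The calls that ended when 1 library was left out were, for the first step, *Socs6* without proB replicate 2 (-0.30) and *Pias1* without pre–proB replicate 1 (0.16) or proB replicate 1 (0.22), and, for the second, *Ptpn6* without proB replicate 1 (0.25), proB replicate 2 (0.30) or preB replicate 2 (0.17) and *Pias1* without proB replicate 2 (0.21). Between genotypes 0 of 16 were called by edgeR, DESeq2 or limma-voom, 0, 1 and 0 had an unadjusted p below 0.05, and the median log2 fold change was -0.01.

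**Figure D4:**
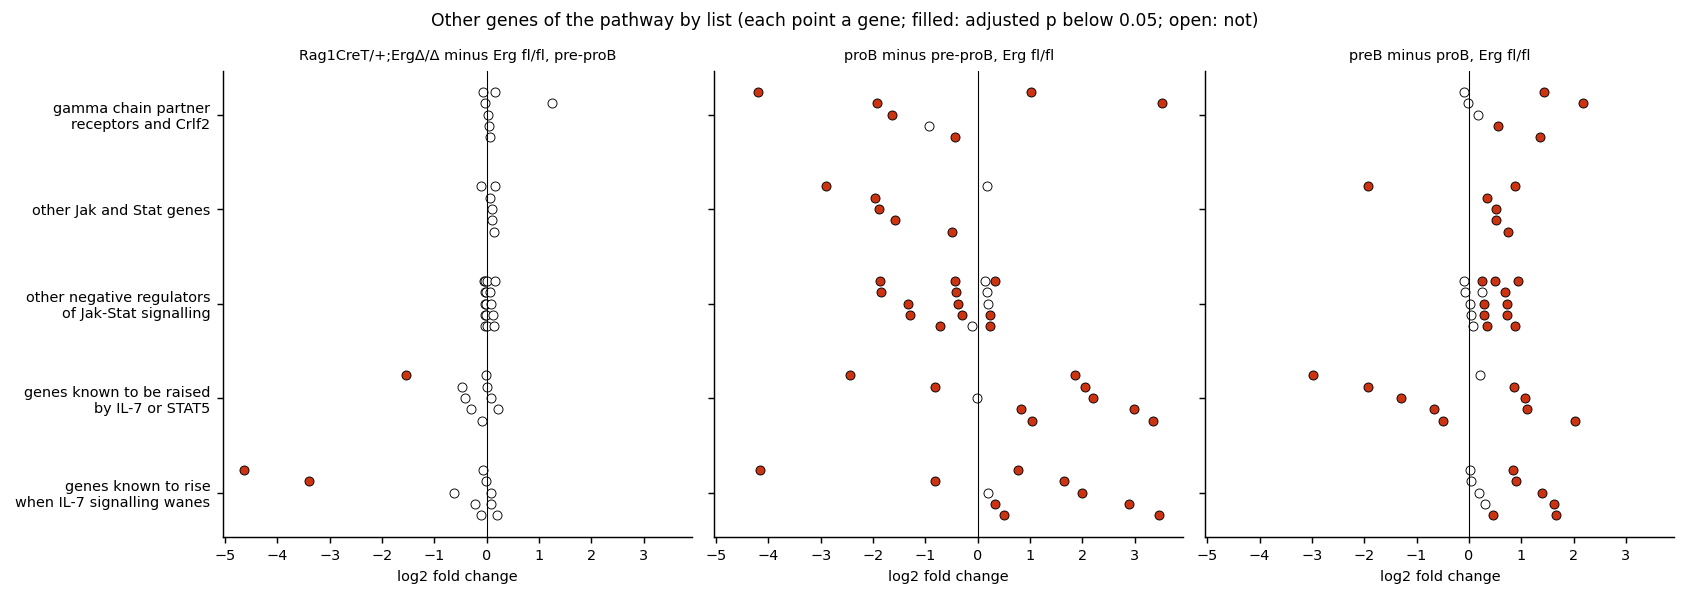
Log2 fold changes (horizontal axis) of the other pathway genes in 5 lists, each point a gene, in 3 comparisons; filled points have an adjusted p below 0.05. In Rag1CreT/+;ErgΔ/Δ against control pre–proB cells 3 points are filled (*Myc*, *Rag1* and *Rag2*), and in preB against proB cells the points of the negative regulators that are filled all lie to the right of 0.

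The 10 genes known to be raised by IL-7 or Stat5 were led in proB cells by *Myc*. *Myc* was at 20.5 and 14.4 CPM in control pre–proB cells, 168 and 175 CPM in proB cells, 20.1 and 23.6 CPM in preB cells, and 6.25 and 5.81 CPM in Rag1CreT/+;ErgΔ/Δ cells. In proB against pre–proB cells 7 of the 10 were higher, *Myc* (3.34), the survival gene *Bcl2l1* (2.99), *Mycn* (2.21), the cyclins *Ccnd3* (2.04) and *Ccnd2* (1.86), *Osm* (1.03) and *Pim1* (0.83), and *Bcl2* (-2.44) and *Pim2* (-0.82) were lower. From proB to preB cells 5 were lower, *Myc* (-2.97), *Ccnd2* (-1.93), *Bcl2* (-1.29), *Ccnd3* (-0.67) and *Osm* (-0.50), and 4 were higher, the kinase genes *Pim2* (2.02) and *Pim1* (1.08), *Bcl2l1* (1.11) and *Mcl1* (0.86). The *Osm* call of this step was lost without any 1 of the 4 libraries compared (-0.53 and -0.49 without proB replicates 1 and 2, -0.44 and -0.60 without preB replicates 1 and 2). It was also lost with DESeq2 (-0.52). Between genotypes 1 of the 9 tested was called, *Myc*, lower in Rag1CreT/+;ErgΔ/Δ cells (-1.55, SE 0.208, adjusted p = 0.0293). That call was lost without Rag1CreT/+;ErgΔ/Δ replicate 1 (-1.60, adjusted p = 0.189) or replicate 2 (-1.50, adjusted p = 0.186), and with limma-voom (-1.51, adjusted p = 0.0905). DESeq2 called 2 of the 9, *Myc* and *Ccnd3*, and limma-voom none, with 4 at an unadjusted p below 0.05.

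Of the 10 genes known to rise when IL-7 signalling wanes, 7 were already higher in proB than in pre–proB cells. These were *Ikzf3* (3.47), *Irf4* (2.89), *Rag2* (2.00), *Rag1* (1.64), *Cxcr4* (0.76), *Blnk* (0.51) and *Ikzf1* (0.32), while *Irf8* (-4.16) and *Spib* (-0.81), which are also plasmacytoid dendritic cell markers, were lower. From proB to preB cells 6 were higher, *Spib* (1.67), the recombinase gene *Rag1* (1.63), the Ikaros family gene *Ikzf3* (1.40), *Irf4* (0.90), the chemokine receptor gene *Cxcr4* (0.85) and *Ikzf1* (0.47), and none was lower. *Bcl6*, the repressor linked to the loss of the IL-7 signal, was not called (0.02, adjusted p = 0.903). Between genotypes edgeR called 2 of the 10, *Rag1* and *Rag2*, both lower in Rag1CreT/+;ErgΔ/Δ cells, with 4 at an unadjusted p below 0.05. DESeq2 called 3, namely these and *Irf4* (edgeR log2 fold change -0.63, adjusted p = 0.0869), and limma-voom called none. *Rag1* was at 8 and 8.46 CPM against 283 and 120 CPM in controls (-4.63, adjusted p = 0.0178), and *Rag2* at 3.25 and 2.71 CPM against 43.6 and 18.8 CPM (-3.40, adjusted p = 0.0241). Both calls were lost without Rag1CreT/+;ErgΔ/Δ replicate 1 (-4.59 and -3.54) or replicate 2 (-4.67 and -3.28), at adjusted p between 0.151 and 0.195. They were also lost with limma-voom (adjusted p = 0.0704 for *Rag1* and 0.188 for *Rag2*) and with robust fitting (0.299 and 0.316). In *Rag1*, *Rag2* and *Myc* control replicate 1 was the higher, and it also held more of the summed B lineage markers (1522 against 818 CPM).

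In preB against pre–proB cells, the step across both transitions, 2 of the 7 gamma chain partners were higher (*Il2ra*, 5.70, and *Il15ra*, 1.57) and 3 lower (*Il2rb*, -4.02, *Il4ra*, -0.48, and *Crlf2*, -0.45). Of the other Jak and Stat genes *Stat6* was higher (0.25) and 5 were lower, from *Stat2* (-2.01), *Stat4* (-1.75), *Jak2* (-1.54) and *Tyk2* (-1.45) to *Stat3* (-1.08). Of the negative regulators 8 were higher, *Socs5* (0.77), *Socs4* (0.51), *Pias1* (0.48), *Sh2b3* (0.32), *Pias2* (0.29), *Ptpn11* (0.22), *Cblb* (0.22) and *Pias4* (0.21), and 5 lower, *Ptprc* (-1.16), *Ptpn1* (-1.12), *Ptpn6* (-1.04), *Cbl* (-1.04) and *Socs6* (-0.26). Of the genes raised by IL-7 or Stat5, 7 were higher, *Bcl2l1* (4.10), *Mycn* (2.42), *Pim1* (1.90), *Ccnd3* (1.37), *Pim2* (1.21), *Mcl1* (0.84) and *Osm* (0.53), and *Bcl2* was lower (-3.73). Of the genes that rise when the signal wanes 8 were higher, *Ikzf3* (4.87), *Irf4* (3.79), *Rag1* (3.27), *Rag2* (2.32), *Cxcr4* (1.61), *Spib* (0.86), *Ikzf1* (0.79) and *Blnk* (0.69), and *Irf8* was lower (-4.12). Calls that ended with 1 library left out were those of *Stat6* (0.13) and *Cblb* (0.12) without pre–proB replicate 1, *Socs6* without pre–proB replicate 2 (-0.23) or preB replicate 1 (-0.26), *Ptpn11* without pre–proB replicate 1 (0.08), proB replicate 2 (0.17) or preB replicate 1 (0.21), and *Osm* without pre–proB replicate 2 (0.36), proB replicate 2 (0.49) or preB replicates 1 (0.60) and 2 (0.45). The *Pias4* call ended without any of 5 libraries, at log2 fold changes of 0.14 and 0.19 without pre–proB replicates 1 and 2, 0.22 and 0.17 without proB replicates 1 and 2 and 0.15 without preB replicate 2. With all libraries kept, it also ended with median-of-ratios size factors, no filter, a filter of 1 CPM, DESeq2 and all 8 libraries in 1 fit. The *Osm* call of this step also ended with no filter, DESeq2 and all 8 libraries in 1 fit.

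Among 12063 genes with a mean of at least 1 CPM, those whose log2 CPM followed *Il7r* most closely over the 8 libraries were *Usp33* (Pearson r = 0.981), *Ergic2* (0.979), *Flii* (0.976), *Lin7c* (0.973) and the mitochondrial gene *COX1* (0.971). *Usp33*, which encodes a deubiquitinase, lay at 60.1 and 58.7 CPM in control pre–proB cells and 117 and 110 CPM in preB cells. For *Cish* they were *Rflnb* (0.997), *Tiam1* (0.994), *Dnajc6* (0.994), the Notch target *Hes5* (0.992) and *Enpp6* (0.990). *Tiam1*, which encodes a Rac exchange factor, was at 28.7 and 20 CPM in control pre–proB, 67.8 and 67.5 CPM in proB, 20.3 and 19.9 CPM in preB and 12.1 and 12.1 CPM in Rag1CreT/+;ErgΔ/Δ cells. Picked for their likeness to *Cish*, these 5 were also highest in both proB libraries and lowest in both Rag1CreT/+;ErgΔ/Δ libraries, which is no independent observation. The coefficients mostly reflect the means of 4 groups, since libraries of a group lie close together, and are a description.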

How the data were processed

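The 8 RNA-sequencing libraries covered the 3 sorted stages of Erg fl/fl bone marrow and the Rag1CreT/+;ErgΔ/Δ pre–proB stage, 2 libraries per group. The authors deposited raw read counts per Entrez Gene identifier, with no normalization. Per their methods and processing notes, base calls came from CASAVA 1.8.2, adapters were trimmed with Trim Galore, reads were aligned to mm10 (GRCm38) with STAR and counted with featureCounts on Rsubread's Entrez annotation. The sources used here give no STAR version and no setting for strand or multi-mapping reads. Close paralogs and overlapping genes may therefore share reads.

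RefSeq symbols matched 25275 of 27179 identifiers. CPM used TMM factors (0.952 to 1.05) over the 8 libraries, and FPKM is CPM per kilobase of exons of GENCODE transcripts with a RefSeq record. edgeR 4.0.16 (R 4.3.3; legacy glmQLFit, glmQLFTest) was fitted to the 4 pre–proB and, separately, the 6 Erg fl/fl libraries, on genes with at least 0.5 CPM in 2 libraries, with Benjamini-Hochberg adjustment over all of them and calls at an adjusted p below 0.05. Standard errors are the log2 fold change over the root of F. With 2 libraries against 2 an exact permutation test cannot go below p = 0.33. Replicates differed by more than counting noise (chi-square per degree of freedom 3.82 to 8.29), and intervals cover only the spread between these libraries. Floors of 3 counts cover counting error only. The procedure was tested on simulated data in which 200 genes were changed 2-fold or 4-fold. There 10.4% to 12.6% of the calls fell on unchanged genes, above the nominal rate. Far more genes were called between the real stages, so the share there may differ. Alternatives were other size factors, filters, DESeq2 1.42.0, limma-voom (limma 3.58.1), robust fitting, all libraries in 1 fit, a replicate block and leaving out each library. In fits that left 1 library in a group, that library was assumed to vary like the other groups.

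The 10 genes and all lists were chosen with earlier results of these data known. Named are the 10 genes, *Erg*, every called gene of the 5 pathway lists (the others are given as counts, and 1 further gene is not reported here) and the 5 nearest patterns of *Il7r* and *Cish*. Genes named because they came near a threshold or went against a list (*Il2rb* and *Bcl6*) were picked after their values were seen. The same holds for *Pax5*, *Siglech*, *Cd4*, *Cd8a*, *Cd3g*, *Lat*, *Ncr1*, *Prf1*, *Klrk1*, *Klrd1*, *Gzmb*, *Klrb1c*, *Eomes* and *Tbx21* among the lineage markers. Erythroid, myeloid and plasma cell marker sums were computed too and ranged over 1.35 to 13.4, 59.7 to 364 and 139 to 648 CPM.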

Additional observations from a re-analysis of the deposited data

How the results depend on the processing

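The number of the 10 genes called was 0 between genotypes in all 13 alternatives, 7 to 9 in proB against pre–proB cells, 7 to 9 in preB against proB cells and 7 to 8 in preB against pre–proB cells over 15 alternatives each. With 1 library left out it ranged from 0 to 0, 7 to 9, 7 to 8 and 7 to 8. Over single genes and settings, 549 of 580 values for the 10 genes kept their direction and side of the threshold, 18 lost a call, 5 gained one and 8 changed sign, and of 1807 values for the other genes named 58 lost a call. Every change of sign was in a difference that was not called. For the genotypes these were *Stat5a* with all 8 libraries in 1 fit (0.00), without Erg fl/fl replicate 2 (0.03) and without Rag1CreT/+;ErgΔ/Δ replicate 2 (0.04), *Stat5b* with total counts (-0.02), without Erg fl/fl replicate 1 (-0.02) and without Rag1CreT/+;ErgΔ/Δ replicate 1 (-0.03), and *Socs2* without Erg fl/fl replicate 2 (-0.18). *Cish* in preB against pre–proB cells changed sign without pre–proB replicate 1 (0.09). With 1 library left out these 4 differences ranged from -0.05 to 0.04, -0.03 to 0.05, -0.18 to 0.85 and -0.3 to 0.09. Genotype calls of *Myc*, *Rag1* and *Rag2* were lost with limma-voom, and those of *Rag1* and *Rag2* with robust fitting. The *Erg* call was also lost with limma-voom (adjusted p = 0.229) and robust fitting (0.363), and the stage calls of *Rag1* with robust fitting (adjusted p = 0.0517 in proB against pre–proB and 0.0606 in preB against proB cells). Over all genes the genotype comparison called 151, but 279 with no filter, 400 with DESeq2, 41 with limma-voom, 442 with all libraries in 1 fit, 401 without Erg fl/fl replicate 2, and 16 and 10 without Rag1CreT/+;ErgΔ/Δ replicates 1 and 2. The cause was not tested. The deviations of same-numbered libraries correlated between -0.04 and 0.15, which cannot show whether such libraries came from the same mouse. With a replicate block 0, 9, 8 and 8 of the 10 genes were called, in the order of comparisons above, and over all genes 265, 10044, 8269 and 9781. Depth limits *Cish* and *Socs3* most, with 38 *Cish* counts in both Rag1CreT/+;ErgΔ/Δ libraries and 26 *Socs3* counts in both preB libraries.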
